A study of Mus musculus with 2 samples.

Results

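Peaks of the acetyltransferase KAT8 that were called in both libraries and had their summit within 1000 bp of an end of exactly 1 protein-coding gene numbered 2381, of 52001 peaks in untreated macrophages (4.58%, 95% exact binomial interval 4.40 to 4.76). They were chosen from the untreated list by an overlap of at least 1 bp with a peak of the R848 list and by the position of the summit, the base of highest signal. The cells were mouse primary bone marrow-derived macrophages grown in 20 ng/ml M-CSF, and KAT8 was profiled by CUT&Tag, a method that tethers a transposase to antibody-bound protein so that nearby DNA is fragmented and given sequencing adapters. The untreated group (0 ng/ml R848) and the group given R848 at 100 ng/ml over 2 h, whose list held 44772 peaks, each had 1 library. Peak names begin with MOF0h in the untreated file and with MOF0h2h in the R848 file. Whether the R848 list was called on the R848 library alone was not tested. Every shared count, rank and R848 fold below rests on its label. The lowest background was 3.37 fragments for untreated peaks and 2.62 for R848 peaks. Fragments piled on the summit numbered 12 and 10 at the median over all peaks, in the same order. Of the 52001 untreated peaks, 16096 overlapped an R848 peak. R848 is a synthetic compound that activates TLR7, a receptor for single-stranded RNA. No genotype, strain, age or number of animals was given in the labels. With 1 library per group no difference has a replicate check, no value has a p-value, and the intervals given cover counting error only. Because presence in both lists chose the members, and wide or strong peaks are called and overlapped more readily, the widths and ranks below describe the members and test nothing.

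KAT8, also known as MOF, belongs to the MYST enzymes, which acetylate lysine. In the MSL complex it acetylates histone H4 at lysine 16, and in the NSL complex, with subunits such as KANSL2, KANSL3, PHF20 and MCRS1, it is known to sit at the promoters of broadly expressed genes. In flies the MSL complex is known for raising transcription of the male X chromosome. A promoter is the DNA around a gene's start, where RNA polymerase II and its general factors assemble, and many mammalian promoters lie in CpG islands, stretches rich in G, C and the dinucleotide CG.

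The promoters of 6 genes with a member at their start are shown: Pole4, Ccdc171 and Rab10 for their high folds and CpG-rich sequence, and Msl2, Rel and Nfkbia as genes of KAT8's partners and of NF-kB described further on. They are RefSeq sequences of GRCm38.p6, the assembly of mm10, from 250 bases before to 50 bases after the listed start, written 5′ to 3′ along the gene. Capitals mark matches to the motif letters given further on. In Pole4 these are an ETS motif at both of the first capital runs and a YY1 motif near the end. Ccdc171 has an NRF1 palindrome and a GC box, Rab10 has NRF1 motifs on both sides of an NF-Y motif, and Msl2 has an NRF1 motif just before its start. Rel has a PU.1 motif, then a GC box, an NF-kB motif and a second GC box, and Nfkbia has 2 NF-kB motifs and a GC box. The last capitals in Nfkbia match the TATA letters on the opposite strand. They begin 19 bases after the listed start, so they are a match of letters and not a TATA box placed before the start.
Pole4, chr6:82652825-82653124, minus strand: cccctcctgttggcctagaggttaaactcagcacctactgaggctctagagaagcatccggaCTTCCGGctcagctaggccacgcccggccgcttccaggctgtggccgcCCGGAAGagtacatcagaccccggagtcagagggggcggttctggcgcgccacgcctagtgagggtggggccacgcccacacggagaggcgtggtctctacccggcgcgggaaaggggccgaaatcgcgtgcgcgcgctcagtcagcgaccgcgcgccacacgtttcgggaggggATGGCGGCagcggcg
Ccdc171, chr4:83525295-83525594, plus strand: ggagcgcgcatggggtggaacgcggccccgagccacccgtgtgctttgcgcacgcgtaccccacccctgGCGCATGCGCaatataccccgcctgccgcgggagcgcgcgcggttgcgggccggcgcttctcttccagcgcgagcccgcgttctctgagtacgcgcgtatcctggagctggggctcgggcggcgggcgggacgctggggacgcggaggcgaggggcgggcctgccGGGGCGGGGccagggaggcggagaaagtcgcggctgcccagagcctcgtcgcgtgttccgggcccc
Rab10, chr12:3309920-3310219, minus strand: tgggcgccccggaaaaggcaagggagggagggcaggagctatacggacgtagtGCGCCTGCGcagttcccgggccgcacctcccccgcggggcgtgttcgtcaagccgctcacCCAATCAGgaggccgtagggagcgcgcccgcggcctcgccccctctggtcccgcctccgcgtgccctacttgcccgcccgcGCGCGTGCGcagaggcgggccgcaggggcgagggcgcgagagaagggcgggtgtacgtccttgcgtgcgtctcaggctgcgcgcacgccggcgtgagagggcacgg
Msl2, chr9:101073804-101074103, plus strand: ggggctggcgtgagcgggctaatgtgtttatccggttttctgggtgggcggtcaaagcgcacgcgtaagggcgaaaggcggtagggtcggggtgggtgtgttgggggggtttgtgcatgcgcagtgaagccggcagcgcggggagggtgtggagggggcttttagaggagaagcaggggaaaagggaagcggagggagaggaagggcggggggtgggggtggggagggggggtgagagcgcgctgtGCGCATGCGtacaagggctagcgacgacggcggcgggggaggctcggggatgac
Rel, chr11:23770920-23771219, minus strand: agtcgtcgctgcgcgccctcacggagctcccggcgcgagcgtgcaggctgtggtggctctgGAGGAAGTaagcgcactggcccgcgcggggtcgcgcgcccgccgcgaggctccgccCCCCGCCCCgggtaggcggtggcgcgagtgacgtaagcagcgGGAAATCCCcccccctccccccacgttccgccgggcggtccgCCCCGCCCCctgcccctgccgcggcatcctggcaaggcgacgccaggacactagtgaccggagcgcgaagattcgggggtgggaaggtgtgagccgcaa
Nfkbia, chr12:55492598-55492897, minus strand: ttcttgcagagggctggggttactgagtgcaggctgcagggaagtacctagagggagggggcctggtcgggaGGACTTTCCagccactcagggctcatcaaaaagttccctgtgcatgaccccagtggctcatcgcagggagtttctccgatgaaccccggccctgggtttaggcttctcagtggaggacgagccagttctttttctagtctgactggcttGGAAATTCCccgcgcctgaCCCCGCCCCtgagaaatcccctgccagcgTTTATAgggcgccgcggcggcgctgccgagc

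Pole4, which encodes a small subunit of DNA polymerase epsilon, had the member of highest fold at a named gene's start. Its peak was 816 bp wide with a fold over background of 17.5 (rank 132) in the untreated list, and the R848 peak over it had a fold of 17.3 (rank 140). The window of Ccdc171 held 46 CG dinucleotides, that of Rab10 43, that of Rel 42, that of Pole4 33, that of Msl2 26 and that of Nfkbia 15. The summit lay 96 bp before the listed start of Rab10, 293 bp before that of Msl2, 277 bp before that of Rel and 221 bp after that of Nfkbia. Windows of this length therefore held the summits of some of the 6 peaks and lay beside the summits of others.

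The members fell at 2310 of 21887 protein-coding genes (10.6%). Of these genes 2242 had 1 member, 65 had 2 and 3 had 3. Among untreated peaks at the end of exactly 1 gene, 2381 of 4684 (50.8%, 49.4 to 52.3) overlapped an R848 peak, against 13130 of 46389 (28.3%, 27.9 to 28.7) of those more than 1000 bp from any gene end. Untreated peaks at the ends of several genes were shared in 585 of 928 cases (63%, 59.8 to 66.2). Most members (2338) overlapped 1 R848 peak and 43 overlapped 2. Since neighbouring members could meet the same R848 peak, the 2381 members matched 2347 different R848 peaks.

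Strand was listed for the genes of 1964 members (82.5%). Of these, 1882 (95.8%, 94.8 to 96.7) lay at the gene's start and 82 at its far end. For genes of at least 3000 bp, whose ends cannot share a window, the share at the start was 1777 of 1839 (96.6%, 95.7 to 97.4). Untreated peaks at 1 gene's end with no R848 overlap were at the start in 1496 of 1845 cases (81.1%, 79.2 to 82.8), and R848 peaks with no untreated overlap in 919 of 1237 (74.3%, 71.8 to 76.7). The intervals of the 3 classes did not overlap.

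At gene starts the summits gathered close to the annotated first base. Their median distance was 140.5 bp, against 145 bp (median interval 140 to 151) over all members. Summits lay within 100 bp in 699 of 1882 members (37.1%), within 250 bp in 1384 (73.5%) and within 500 bp in 1668 (88.6%). Counted along the gene, the median was 25 bp downstream of the start (12 to 44), and 1018 summits (54.1%, 51.8 to 56.4) were downstream of it. Upstream, 348 summits were up to 100 bp from the start and 361 were farther but within 250 bp. Downstream, 351 lay at 0 to 100 bp and 324 farther but within 250 bp. Beyond that the 2 sides differed: 42 summits lay more than 500 bp upstream and 172 lay that far downstream, inside the gene. Distances are to the outermost annotated end, so a summit at a later start of the same gene counts as downstream. At Arid1b a summit lay 212 bp after the outermost end but 565 bp before the start listed for its promoter. How many of the downstream summits lie at such later starts was not counted. The peak itself covered the start base in 1343 members (71.4%, 69.3 to 73.4).

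**Figure D1:**
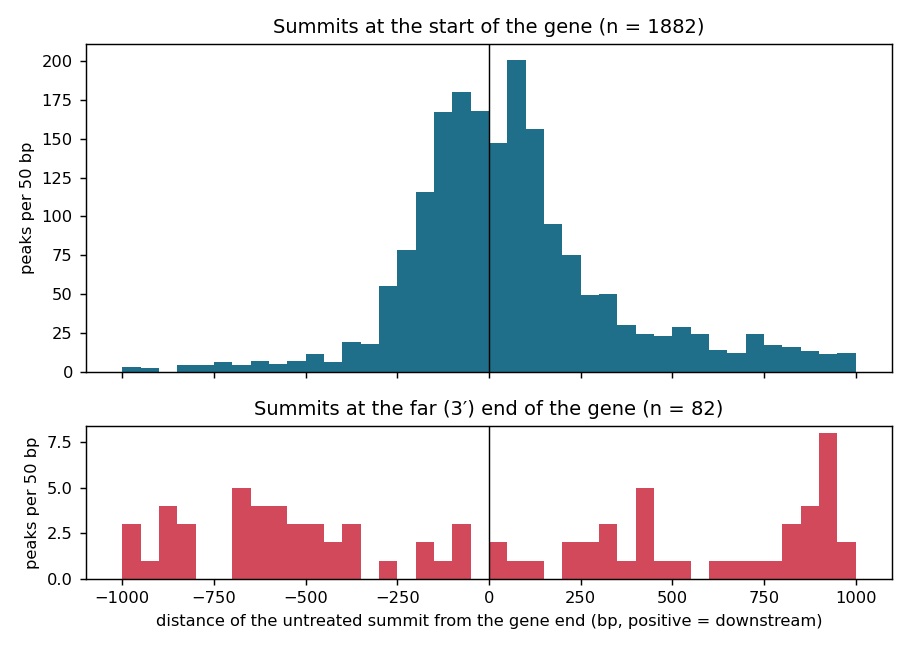
Distance of the untreated summit from the gene end in bp (horizontal axis, positive is downstream along the gene), as member peaks per 50 bp (vertical axis), for the 1882 members at gene starts (upper panel) and the 82 at far ends (lower panel). Summits at starts pile up within 250 bp on both sides with a longer tail into the gene, while those at far ends show no such pile.

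The 82 members at far ends looked different. Their median distance from the end was 604.5 bp (489 to 668), and 12 (14.6%, 7.80 to 24.2) were within 250 bp of it. Their median width was 407 bp, and their median folds were 3.13 untreated and 3.25 with R848, against 3.88 and 3.87 for members at starts. Predicted genes with Gm or Rik symbols made up 36 of the 82, counted by member. Counted by gene, they were 93 of all 2310 genes with a member.

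The 4 members of highest fold were not typical of the rest. At Wls, which encodes the carrier of Wnt proteins to the cell surface, the peak lay 880 bp beyond the far end, with a fold of 42 in both lists. At Lars2, the mitochondrial leucyl-tRNA synthetase, it lay 668 bp inside the far end, with folds of 40.7 and 40.5. The predicted gene Gm32584 had members at both its ends, with untreated folds of 32.8 and 29.2 and R848 folds of 35.8 and 31.2. The fragments piled on the summit, solved from the deposited values, numbered 1778 and 1653 at Wls and 4519 and 3885 at Lars2, against medians of 16 and 13 over all members. All 4 peaks were between 405 and 479 bp wide in the untreated list. Repeated sequence and excluded regions were not checked here, so their part in these 4 peaks was not tested.

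Width and fold went together. The members were 475 bp wide at the median (462 to 493; quartiles 329 and 677; range 200 to 2133), and the R848 peaks over them 445 bp. All untreated peaks had a median of 281 bp, shared peaks at several genes 480 bp, shared peaks away from gene ends 382 bp, and untreated-only peaks at 1 gene 273 bp. Widths of 1000 bp or more occurred in 146 members (6.13%), in 533 of 13130 shared peaks away from ends (4.06%) and in 1 of 2303 untreated-only peaks at 1 gene. Across the 2381 members, Spearman's rho was 0.614 between fold and width in the untreated list and 0.476 between the widths in the lists. These are correlations across regions of 1 library or of the same pair of libraries, which share depth and caller, and regions are not replicates.

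**Figure D2:**
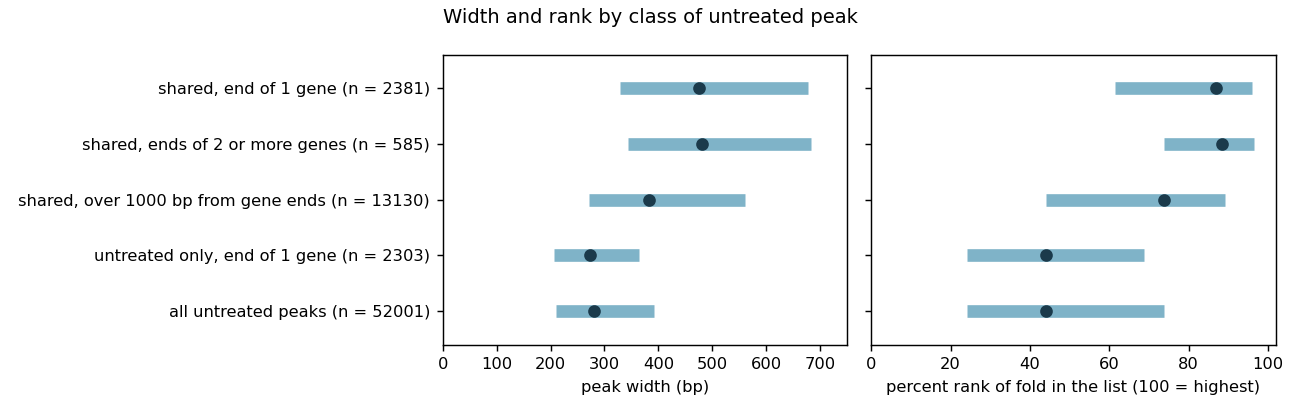
Peak width in bp (left) and percent rank of fold within the untreated list (right, 100 is the highest fold) for classes of untreated peak, with the median as a point and the quartiles as a bar. Members have a median width of 475 bp and a median percent rank of 86.9, against 281 bp and 44.0 for all untreated peaks. Shared peaks at the ends of several genes have 480 bp and 88.5.

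The widest members were at Gm51573 (2133 bp) and Chd7 (2109 bp), a chromatin remodeller needed in development. They were followed by H2ac18 (1897 bp), a histone H2A gene, Zbtb14 (1847 bp), a zinc finger factor, and Pde3b (1623 bp), a phosphodiesterase that breaks down cyclic nucleotides. The R848 peaks over them were 1368, 1597, 914, 1774 and 1214 bp wide, in the same order. Each of the 5, chosen by their untreated width, was narrower in the R848 list, by unequal amounts. Folds in the untreated list were 4.69 at Gm51573, 8.09 at Chd7, 6.48 at H2ac18, 5.39 at Zbtb14 and 9.35 at Pde3b. By fold these ranked 657, 107, 250, 448 and 61 among the 2381 members, in the same order.

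Members at starts were wider and closer to the start where their fold was higher. In the lowest of 3 bins of untreated fold (1.69 to 3.2, n = 646) the median width was 336 bp, the median distance 163.5 bp and the summits of the lists lay 121.5 bp apart. In the middle bin (3.24 to 4.37, n = 608) these were 466.5, 125 and 82 bp. In the highest bin (fold of at least 4.38, n = 628) they were 676.5, 127 and 63 bp. Distance changed between the lowest and the middle bin only, while width and the agreement of the summits changed at each step. The rho of fold and distance over the 1882 members at starts was -0.123.

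The members ranked high in both lists. The median fold was 3.66 in the untreated list (rank 6806 of 52001) and 3.85 in the R848 list (rank 6688.5 of 44772). As percent ranks, with 100 the highest, these were 86.9 and 85.1. Ranks come from lists of different length and depth and show no change. In the untreated list 1152 members (48.4%) were in the top 10% of fold, and 734 of these (63.7%, 60.9 to 66.5) were also in the top 10% of the R848 list. At the other end, 147 members (6.17%) were in the lower 50% of both. An adjusted significance (q-value, as deposited) of 0.05 or less was reached by 1817 members (76.3%) in the untreated list, against 36.3% of all its peaks, and by 1780 (74.8%) in the R848 list, against 41.1%. Both conditions held for 1477 members (62%) and neither for 261 (11%). Shared untreated peaks at several genes were much like the members: 76.8% reached a q-value of 0.05, 49.6% were in the top 10% and the median percent rank was 88.5. For shared peaks away from gene ends these were 62.3%, 24.5% and 73.8. High rank is therefore not particular to peaks at 1 gene's end.

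The values rest on few fragments. The median pileup of 16 fragments in the untreated library has an exact Poisson 95% interval of 9.15 to 26.0, and the median of 13 in the R848 library one of 6.92 to 22.2. Pileups took whole values over a common lowest background of 3.37 and 2.62 fragments, so folds came in steps, and 158 members had exactly the median untreated fold. For 2371 of 2381 members the intervals of the 2 pileups overlapped, before any correction for depth. The same count was not made over all shared peaks, so it does not set the members apart from them. Spearman's rho of the 2 folds over the members was 0.613.

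**Figure D3:**
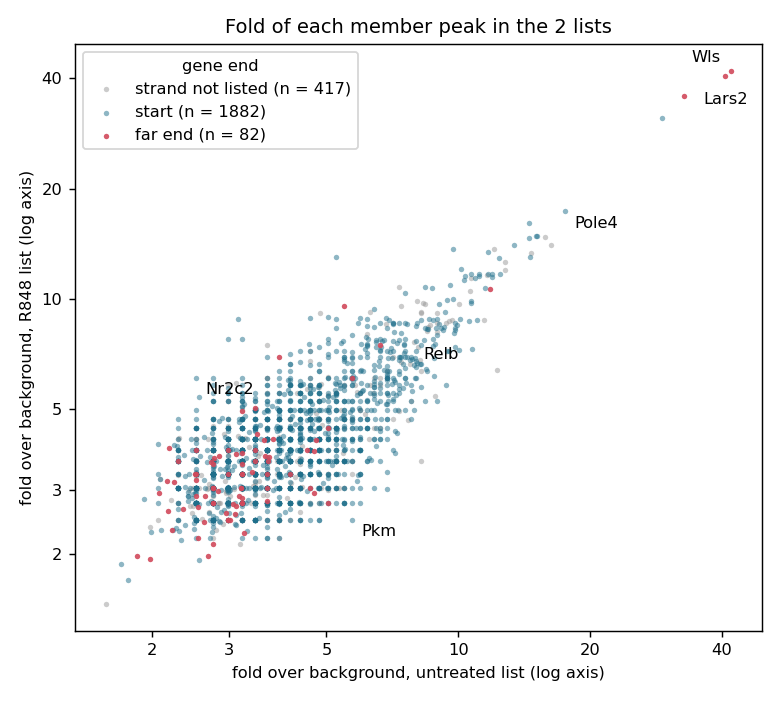
Fold over background of each member in the untreated list (horizontal) and of the R848 peak over it (vertical), both on log axes, coloured by the gene end. Most members lie between 2 and 10 in both lists, in steps set by whole fragments, and Wls, Lars2 and Gm32584 stand apart at the upper right.

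The summit of the R848 peak was a median of 84 bp from the member's own (quartiles 36 and 165), within 100 bp for 1339 members (56.2%) and within 250 bp for 2075 (87.1%). The other 306 were farther apart, up to 1666 bp, and in 94 members the summits were farther apart than the untreated peak is wide. The overlap was 330 bp at the median, and 33 members overlapped by less than 50 bp. The smallest overlap, 3 bp, was found at Dclk3 and Defa32.

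A fold of at least 10 in both lists was found for 35 members (1.47%), 22 of them at gene starts. In the untreated list alone 45 of 2381 members reached it, against 257 of 13130 shared peaks away from gene ends. Among shared peaks at several genes 5 of 585 did, and among all untreated peaks 307 of 52001. Folds this high were thus not particular to the members. Asxl2, which encodes a chromatin regulator of the Polycomb group, had a peak of 1298 bp with its summit 50 bp before the start and folds of 15.2 and 14.8. Ccdc171, a coiled-coil protein gene, had folds of 15.1 and 14.9. Its summit lay 16 bp after the gene's outermost annotated end and 120 bp before the start listed for its promoter. Naa35, a subunit of an N-terminal acetyltransferase, had folds of 14.5 and 14.6, and Ubxn2a, an adaptor of the p97 ATPase, 14.5 and 16.1. Mcur1, a regulator of mitochondrial calcium uptake, had 14.6 and 13. Strand was not listed for Hint1 (15.8 and 14.7), a nucleotide hydrolase, for Cacna1a (16.3 and 14.0), a neuronal calcium channel, or for Atp2a2 (14.7 and 13.4), the calcium pump of the endoplasmic reticulum. The ranks of these 8 genes ran from 144 to 176 untreated and from 153 to 206 with R848.

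The functions of the genes were described with 38 lists of genes by symbol, which held 3944 genes and 483 of the 2310 genes with a member. The other 1827 were in no list. The share of genes with a member was above the 10.6% of all protein-coding genes in 28 lists and below it in 10. All genes with a member were longer (median 26927 bp) than all protein-coding genes (17169 bp). The part of gene length, expression and promoter type in these shares was not tested, and no list is shown to stand apart by its share alone.

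**Figure D4:**
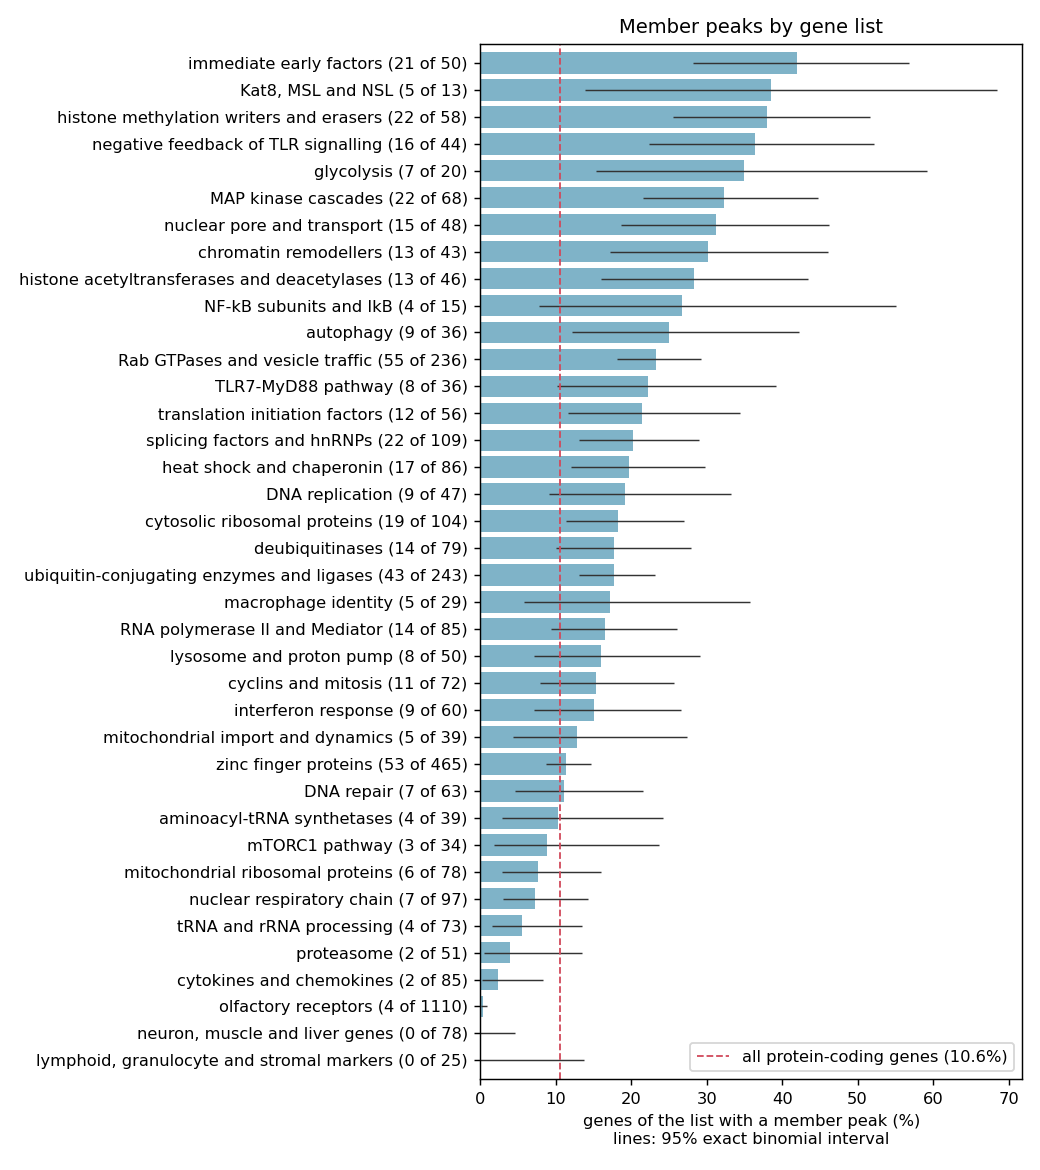
Share of the genes of each list that had a member, in percent (horizontal), with the counts beside each list name and the 95% exact binomial interval as a line. The dashed line is the 10.6% of all protein-coding genes, and the lists run from 42.0% for immediate early factors to 0 for the markers of other cell types.

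Chromatin regulators were among the lists of highest share. Writers and erasers of histone methylation had a member at 22 of 58 genes (37.9%, 25.5 to 51.6). Kdm4b, a demethylase of histone H3 lysine 9 and 36, had an untreated fold of 9.65 and an R848 fold of 8.72. Kdm7a, a demethylase of lysine 9 and 27, had 9.33 and 9.17, Prmt1, an arginine methyltransferase, 6.64 and 7.25, and Suz12, a core subunit of Polycomb repressive complex 2, 6.18 and 8.78. Nucleosome remodellers had one at 13 of 43 genes (30.2%), among them Smarca4, the ATPase of the BAF complex, with 6.71 and 7.66, and its partner Actl6a with 5.95 and 4.97. Acetyltransferases, deacetylases and their partners had one at 13 of 46 genes (28.3%). Brpf1, a scaffold of the MYST enzymes KAT6A and KAT6B, was highest at 10.7 and 9.86, and Kat6a itself had 4.81 and 5.25.

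Of 13 genes for KAT8 and its MSL and NSL partners, 5 had a member (38.5%, 13.9 to 68.4), all at their starts. Kansl2, an NSL scaffold, had an untreated fold of 6.18 and an R848 fold of 3.59, from 26 and 12 fragments. Msl2, the ubiquitin ligase of the MSL complex, had 4.81 and 5.53, Phf20, an NSL reader of methylated lysine, 4.35 and 4.14, and Mcrs1, another NSL subunit, 3.42 and 3.04. Kansl3, the fifth and outside the rule for named genes, had 5.49 and 2.76. For Kansl2 the Poisson intervals of the pileups (17.0 to 38.1 and 6.20 to 21 fragments) overlapped. Kat8 itself had no member.

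The list of immediate early factors had the highest share. Of 50 immediate early factors, the genes induced first after a stimulus and their relatives by symbol, 21 had a member (42.0%, 28.2 to 56.8). Klf16, a Krüppel-like factor, stood highest, with a peak of 1415 bp and a fold of 11.6 in both lists. Klf7 had folds of 4.58 and 5.80, Klf13 5.06 and 4.90 at its higher member, and Atf7, a leucine zipper factor, 5.04 and 6.08. Egr1, Jun, Junb and Atf3 were also among the 21, at lower mean ranks. The median percent rank of the list's genes was 95.3 untreated and 93.5 with R848, against 89 and 86.8 over all genes with a member. All 21 genes had a peak in the untreated library as well as after R848, as the rule requires.

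The list of negative regulators of Toll-like receptor signalling had a member at 16 of 44 genes (36.4%, 22.4 to 52.2). Of the 16, 9 are dual-specificity phosphatases, a family that includes the MAP kinase phosphatases. The family was taken by symbol, so a place in the list does not show that a gene such as Dusp22 or Dusp23 regulates this signalling. How many of the 44 belong to the family was not counted, so the 9 are not a result about it. Dusp22 was highest (8.77 untreated and 8.72 with R848). Dusp1, which switches off p38 and JNK, had a peak of 960 bp and folds of 3.46 and 5.0, Dusp2 had 4.51 and 4.66, and Dusp23 3.89 and 6.08. Kinases at several levels of the MAP kinase cascades were also frequent, with a member at 22 of 68 genes (32.4%, 21.5 to 44.8). Map3k2 had 8.93 and 9.12, Mknk2, a kinase of the translation factor eIF4E, 8.46 and 8.27, and Map3k3 6.18 and 7.53. Rps6ka5, a stress-activated kinase of histone H3, had 7.55 and 6.48.

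NF-kB, the dimeric factor that R848 activates through MyD88, had a member at 4 of 15 genes (26.7%, 7.79 to 55.1). Relb had an untreated fold of 7.94 and an R848 fold of 7.59, Rel 5.49 and 6.76, and Rela, the p65 subunit, 3.2 and 4.70. At Nfkbia, the inhibitor that NF-kB itself induces, 24 fragments (15.4 to 35.7) gave a fold of 5.51 and 36 (25.2 to 49.8) gave 6.11. Of the TLR7 pathway, 8 of 36 genes had a member (22.2%, 10.1 to 39.2). Traf3, the adaptor toward interferon genes, had 5.99 and 7.50, Unc93b1, the chaperone that carries TLR7 to endosomes, 5.72 and 3.59, Traf2 4.12 and 3.04, and Cnpy3, a folding factor of Toll-like receptors, 3.43 and 3.87. Interferon response genes had one at 9 of 60 (15.0%). Those highest were the receptor and signalling genes Stat3 (9.78 and 8.05), Ifngr1 (6.87 and 5.80), Jak2 (6.18 and 7.43) and Ifnar1 (6.18 and 4.42).

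Cytokine and chemokine genes were on the other side. Only Tnf and Tgfb2 of 85 had a member (2.35%, 0.286 to 8.24). Tnf, the early inflammatory cytokine, had a peak of 277 bp with a fold of 2.52 (10 fragments, 4.80 to 18.4) in the untreated list, under an R848 peak of 551 bp with a fold of 3.61 (18 fragments, 10.7 to 28.4). Tgfb2 had 2.98 and 3.59 from 12 fragments in each. The untreated folds of both genes are below the median of the members.

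Transport and splicing genes were above the share of all genes. Nuclear pore and transport factors had a member at 15 of 48 genes (31.2%, 18.7 to 46.3), led by the importins Kpna3 (12.8 and 12) and Kpnb1 (6.65 and 7.39), the exportin Xpo1 (6.41 and 5.32) and the mRNA export receptor Nxf1 (5.04 and 8.93). Rab GTPases and vesicle traffic genes had one at 55 of 236 (23.3%, 18.1 to 29.2), with Rab10 at 9.71 and 10, Vps26c at 9.05 and 9.66, Rab8a at 7.32 and 8.56 and Rab1a at 6.41 and 9.40. Splicing factors had one at 22 of 109 (20.2%, 13.1 to 28.9), with Srsf4 at 10.7 and 9.76, Sf3b1, the branch point factor, at 9.44 and 9.90, and Srsf3 at 7.55 and 6.91. In each of these pairs the first value is the fold in the untreated list and the second that in the R848 list.

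Metabolic and protein synthesis genes were uneven. Glycolysis had a member at 7 of 20 genes (35.0%, 15.4 to 59.2), among them Gpi1 (6.06 in the untreated list, 5.64 in the R848 list), Pgam1 (4.58 and 4.97), Eno1 (3.89 and 4.97) and Pfkl (3.89 and 4.14). Translation initiation factors had one at 12 of 56 (21.4%), with Eif5 at 5.72 and 6.88, Eif1 at 5.33 and 5.91, Eif4g2 at 6.28 and 5.80 and Eif5a at 7.1 and 5.32. Cytosolic ribosomal proteins had one at 18 of 94 (19.1%), not counting ribosomal S6 kinase genes, which the list's symbol pattern also caught. The nuclear-encoded respiratory chain had one at 7 of 97 (7.22%), mitochondrial ribosomal proteins at 6 of 78 (7.69%), factors of tRNA and rRNA processing at 4 of 73 (5.48%) and the proteasome at 2 of 51 (3.92%). The rule leaves out peaks at the ends of several genes. With shared peaks at several genes added, the shares became 21.6%, 20.5%, 24.7% and 11.8%, in the same order, against 15.7% of all protein-coding genes.

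The remaining lists of cell machinery lay between. Autophagy had a member at 9 of 36 genes (25%), with Wipi1 (8.93 and 7.95) and Uvrag (8.82 and 6.16) highest, and lysosome and proton pump genes at 8 of 50 (16%), with Ctsb (4.87 and 3.04) and Tfeb (3.04 and 3.88). Heat shock and chaperonin genes had one at 17 of 86 (19.8%), among them Hspa8 (8.85 and 5.41) and Dnajb1 (7.14 and 5.99), DNA replication genes at 9 of 47 (19.1%), and ubiquitin-conjugating enzymes and ligases at 43 of 243 (17.7%), led by Rnf130 (11.7 and 11.7). Deubiquitinases had one at 14 of 79 (17.7%), RNA polymerase II and Mediator at 14 of 85 (16.5%), including Polr2a (4.58 and 4.42), and cyclins and mitosis genes at 11 of 72 (15.3%). By members alone, mitochondrial import (5 of 39, 12.8%), zinc finger proteins (53 of 465, 11.4%), DNA repair (7 of 63, 11.1%), aminoacyl-tRNA synthetases (4 of 39, 10.3%) and the mTORC1 pathway (3 of 34, 8.82%) were near the share of all genes. With shared peaks at several genes added, their shares became 23.1%, 16.1%, 30.2%, 20.5% and 14.7%, in the same order, against 15.7% of all protein-coding genes. Values in parentheses after a gene are its folds in the untreated and the R848 list.

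Markers of macrophages and of other cells were checked as well, with the limit that a peak is not a level of expression. Of 29 genes of macrophage identity, 5 had a member (17.2%, 5.85 to 35.8), among them Cebpb (4.43 and 5.4), Cebpd (3.66 and 3.87), Ctsb and, outside the rule for named genes, Fcgr3. The defining markers Csf1r, Spi1, Adgre1 and Cd68 had none. None of 25 markers of lymphoid cells, granulocytes and stroma and none of 78 genes of neurons, muscle and liver had a member, nor did any of these have a shared peak at several genes. A count of 0 allows exact upper limits of 13.7% and 4.62% of these lists. The lists are not complete: the neuronal channel gene Cacna1a is not among the 78 and had a member, with folds of 16.3 and 14.0. Olfactory receptors had 4 of 1110 (0.360%).

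Members with unlike ranks in the 2 lists were few. Percent ranks among the members themselves differed by 14.7 points at the median, and 148 members differed by more than 50. Nr2c2, Nr2f6 and Nr1d2, all nuclear receptor genes, had the largest differences toward R848. At each of them the member was the weaker of 2 neighbouring untreated peaks under 1 wide R848 peak. At Nr1d2, for example, untreated folds of 2.75 and 5.26 stood under an R848 fold of 6.08. Toward untreated, Pkm, the glycolytic pyruvate kinase, had folds of 5.72 and 2.49 from 24 fragments (15.4 to 35.7) and 8 (3.45 to 15.8). Bmp2k had 5.95 and 2.76 and Slc35e1 6.87 and 3.02. The intervals of Pkm's pileups overlapped, and the lowest background was 3.37 fragments for untreated peaks against 2.62 for R848 peaks. Whether these genes differ between the conditions was not tested.

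Just inside the limit of 1000 bp, summits at Gapvd1 (997 bp) and Pbx3 (995 bp) had untreated folds of 2.75 and 3.2. Just outside, shared peaks near Gm1979 (1003 bp), Gm31513 (1004 bp) and Ppm1b (1005 bp) had 2.17, 3.2 and 7.46. The limit did not fall at a break in fold.

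The sequence at the starts was not used to choose the members. A listed start within 1000 bp of the gene's own end was found for 15752 genes, of which 1789 had a member at the start. Their windows of 300 bases had a median of 26 CG dinucleotides (quartiles 20 and 34), against 19 at starts with an untreated-only peak (n = 1322), 19 with an R848-only peak (n = 732) and 7 at genes with no summit at either end (n = 9959). At least 10 CG dinucleotides were found in 94.9%, 77.8%, 73.1% and 43.1% of these windows, in the same order. Median GC content was 65.7%, 60.7%, 60% and 52.3%. Within the members, split in 3 by mean rank, windows in the highest group had 30 CG dinucleotides at the median and those in the lowest 23.

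Motifs were searched on both strands as fixed letters. The GC box (GGGGCGGGG), bound by the SP and KLF factors, matched in 32.6% of member windows (30.5 to 34.9), against 22.9% with an untreated-only peak, 21.9% with an R848-only peak, 10.6% of genes with no summit and 15.8% of all windows. NRF1 (GCGCNTGCG), a factor of CpG-rich promoters, matched in 19.1% (17.3 to 21), against 13%, 9.84%, 5.72% and 9.23%. NF-Y (CCAATNAG), which binds the CCAAT box, matched in 14.5%, against 8.02%, 9.02%, 7.55% and 8.85%. YY1 (ATGGCGGC) matched in 5.81% (4.77 to 7.0), against 3.78% (2.82 to 4.96), 2.32%, 2.31% and 3.28%, so the first 2 intervals overlapped. The groups also differ in base composition, as given above, and its part in these shares was not tested.

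Other motifs were spread more evenly or the other way. ETS (CCGGAAG) matched in 14.4% of member windows, 15.3% with a peak of either 1 list only and 9.26% with no summit. The E-box (CACGTG) matched in 10.3%, 10.1%, 11.1% and 6.72%, and CRE (TGACGTCA) in 3.47%, 3.25%, 2.46% and 1.81%. ZNF143 (ACTACAATT) matched in under 1% of each group. The TATA box, searched as TATAAA, matched in 5.03% of member windows, 9.15% with an untreated-only peak, 7.79% with an R848-only peak and 17.4% with no summit. In the same order AP-1 (TGANTCA) matched in 3.24%, 4.61%, 6.42% and 8.51%. NF-kB (GGNNTTTCC) matched in 5.31%, 6.28%, 7.24% and 5.45%, and PU.1 (GAGGAAGT), a motif of the macrophage factor, in 2.46%, 3.1%, 3.69% and 3.4%. For the NF-kB letters, shown above in Nfkbia and Rel, the intervals of the other 3 groups overlapped that of the members. The letters of ETS and PU.1 overlap in part, and a match is a string of letters, not a bound site.

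**Figure D5:**
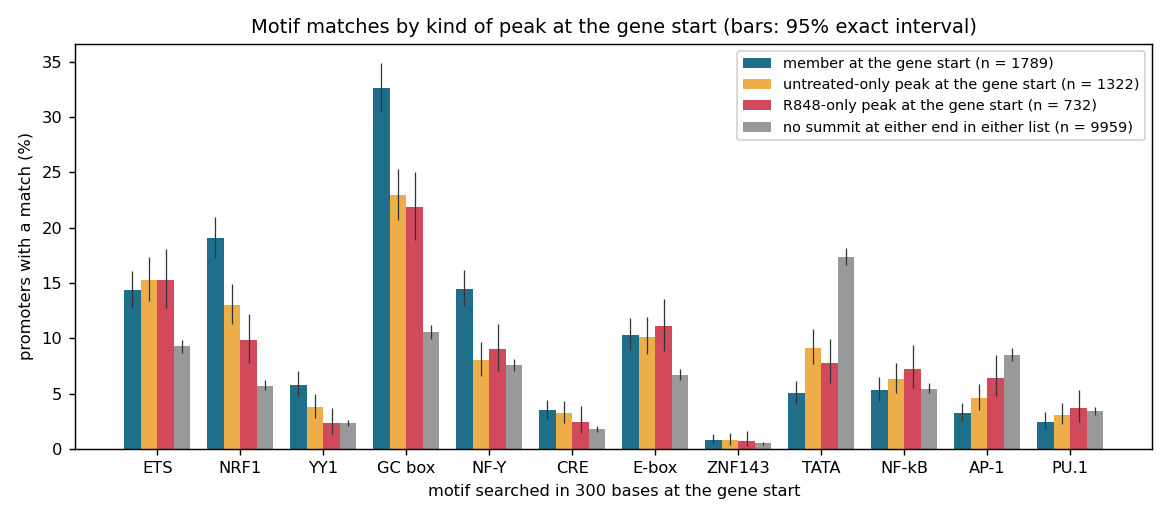
Share of promoter windows of 300 bases with a match to each motif, in percent (vertical), for 4 groups of genes, with 95% exact intervals as lines. Members have the highest share for the GC box, NRF1, NF-Y and YY1 and the lowest for TATA and AP-1. Among these, intervals overlap against untreated-only peaks for YY1 and AP-1 and against R848-only peaks for TATA. Members are also highest for CRE and ZNF143 and lowest for NF-kB and PU.1, with intervals that overlap those of untreated-only and R848-only peaks.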

How the data were processed

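KAT8 CUT&Tag peaks came from 1 narrowPeak list for each library, assigned and grouped by the treatment label of its sample record; the prefix of the R848 file's peak names (MOF0h2h) differs from that label, and what it stands for is not stated. Per the submitters' processing notes the tools were Bowtie (0.12.8), DiffBind and MACS2 (2.2.7.1) and the build was mm10; roles, order and settings are not stated there. Each peak line, as deposited by the authors, holds a score, a ratio (fold over background), the p-value and the q-value as −log10, and the offset of the summit. The lowest −log10 p was 2.01 in both lists, and the narrowest peaks were 200 bp wide.

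With Python 3.11.15, pandas 2.3.3 and scipy 1.17.1, members were found by the overlap and window rules, with gene ends of 21887 protein-coding genes on standard chromosomes from a RefSeq table of GRCm38.p6. Strand and starts came from its promoter table (17492 genes, 79.9%); for genes with several starts the one nearest the gene's own 5′ end was used. Where a member overlapped several R848 peaks, the one with the highest fold was taken. Ties in fold share a mean rank. Pileup and background were solved from fold = (pileup + 1) / (background + 1) and the Poisson tail, for 100% of peaks within a tolerance of 0.001. Intervals are exact (Clopper-Pearson) for shares, from order statistics for medians and Poisson for pileups. The code recovered planted members and pileups in simulated data.

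The members, the gene lists and the motifs were chosen with earlier results of these data known. Genes named are the 10 of highest fold per list, the 5 widest, the 5 with most members, the 3 most unlike in rank per direction, the 3 on either side of the window limit, and up to 4 per gene list by mean rank; gene lists are symbol patterns. Of the genes of highest fold and with most members, only some are described, and some named items are not reported here. The alternatives were a 50% overlap, windows of 500 or 3000 bp, a q-value of 0.05 in both lists, summits within 250 bp, and the R848 list as the base.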

Additional observations from a re-analysis of the deposited data

How the results depend on the processing

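No result rests on a test, so the alternatives move values and end no call. With a q-value of 0.05 or less required in both lists, the members fell to 1477 at 1438 genes, with a median distance of 139 bp, a median width of 572 bp and median percent ranks of 94.1 (untreated) and 92.9 (R848). With an overlap of 50% of both peaks the distance was 139 bp, the width 498.5 bp, the untreated percent rank 92.5 and the share at gene starts 96.7%. A window of 500 bp gave a distance of 124 bp and 97.7% at starts. One of 3000 bp gave 202 bp, a width of 460 bp and 88.7%. The R848 list as the base gave a width of 439 bp. The other 26 values stayed within their limits of change. Counts for 8 gene lists, added with the start share after the data were seen, stayed within 1.5 times in 40 of 48 cases. In all 7 settings 7 of these lists were above the share of all genes and cytokines below it. No paired analysis was possible because each group has 1 library and the labels carry no replicate numbers. Depth limits single members: a median member rests on 16 and 13 fragments, and whether its fold differs between the libraries is not detectable at this depth.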

Other observations

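Members were scarce on the X chromosome. Of 966 protein-coding genes on X, 21 had a member (2.17%, 95% exact interval 1.35 to 3.30), against 2284 of 20665 on the autosomes (11.1%, 10.6 to 11.5). Without olfactory, vomeronasal and predicted genes the shares were 12 of 803 (1.49%, 0.774 to 2.6) and 2199 of 17849 (12.3%, 11.8 to 12.8). The gap was already there among untreated peaks at 1 gene's end, which 34 X genes (3.52%) and 4325 autosomal genes (20.9%) had. Of such peaks, 24 of 43 on X (55.8%, 39.9 to 70.9) and 2352 of 4627 on autosomes (50.8%, 49.4 to 52.3) were shared. Of all untreated peaks, 803 of 1771 on X (45.3%, 43 to 47.7) and 15148 of 49606 on autosomes (30.5%, 30.1 to 30.9) were, with intervals that did not overlap. The untreated peaks on X were 3.41% of the list, with a median pileup of 13 fragments against 12 on autosomes. The X genes with the highest members were Asmt and Ammecr1. Asmt, the last enzyme of melatonin synthesis, had folds of 13.4 and 14.0, and Ammecr1 11.1 and 11.7. Both were singled out after their values were seen. Whether the Asmt peak, at bases 170673156 to 170673645 of X, lies in sequence shared with Y was not checked, so it may not stand for X-linked genes. The sex of the cells and the number of X copies are not stated in the labels, and copy number, mappability and expression were not tested.

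The share of genes with a member also differed among the autosomes, from 7.14% on chromosome 7 to 16.4% on chromosome 8, and on Y it was 5 of 256 genes.

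Genes with 3 members were Ctdsp1, a phosphatase of the RNA polymerase II tail, and the predicted genes A530032D15Rik and Gm52433. At Ctdsp1, members lay 122 bp before and 451 bp after the start, under 1 R848 peak of 792 bp, and 222 bp beyond the far end. Their untreated folds were 4.42, 2.37 and 4.50. At A530032D15Rik the summit pileups were 94, 67 and 66 fragments for folds of 2.54, 2.30 and 2.37.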
